A study of Mus musculus with 28 samples.

Results

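Phenobarbital changed liver RNA in 2 mouse experiments that the series places side by side: a 27-week feeding study in C3H mice, at the promotion stage of a tumour initiation and promotion protocol, and a 7-day feeding study in mice with humanised receptors. The quantity described here is the difference of the 2 phenobarbital effects, C3H minus humanised, over all non-control probes of the array. It used 20 of the 28 arrays of the series, 1 array per animal. The C3H/HeNCrlCrlj mice, called C3H below, were males fed 0 ppm (n = 3) or 500 ppm phenobarbital (n = 3) for 27 weeks, and both groups had first been injected once, intraperitoneally, with the liver carcinogen diethylnitrosamine at 90 mg/kg. The hCAR/hPXR mice were males fed 0 ppm (n = 7) or 1000 ppm phenobarbital (n = 7) for 7 days, and the labels name no carcinogen for them. All 4 groups were liver, ages are not given in the sources used here, and the labels do not say whether the C3H livers were sampled from tumours or from surrounding tissue. Strain, receptor genotype, dose, duration, carcinogen and array slide differ together between the experiments, so that their parts in any difference cannot be told apart.

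Phenobarbital is a barbiturate that activates the nuclear receptor CAR (Nr1i3), and in part PXR (Nr1i2), which then drive genes of drug oxidation, conjugation and export in hepatocytes. In rodents given an initiating carcinogen, long feeding of phenobarbital promotes the growth of altered hepatocyte foci and tumours, many of which in mice carry an activated beta-catenin pathway. Beta-catenin is also the pathway that, in normal liver, sets the gene expression of the hepatocytes around the central vein against that of hepatocytes around the portal tract. In the hCAR/hPXR strain the human receptors replace the mouse ones, a model made to ask how the human receptors respond.

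Values below are log2 processed signals relative to the 75th percentile of their own array, so that a level of 0 lies at that percentile. An effect is phenobarbital minus control, a difference is the C3H effect minus the hCAR/hPXR effect, and ± is the standard error of the limma fit over the 20 arrays. A probe was called, and a gene said to have risen or fallen, where the p-value adjusted over the 26687 tested probes was under 0.05. Probes that the scanner software marked as well above background, called detected here, made up 41.3% to 46.0% of each C3H array and 46.6% to 58.6% of each hCAR/hPXR array. The slides were not balanced. The first hCAR/hPXR slide held the 7 controls and phenobarbital animal 1, the other held phenobarbital animals 2 to 7, and the 6 C3H arrays shared 1 slide of their own. Animal 1 lay between the controls and the other phenobarbital animals on the leading principal component, at -29.95 against -49.33 to -43.96 in controls and -12.32 to -8.29 in animals 2 to 7. With the slide as a block, the hCAR/hPXR effect rests on animal 1 alone, and values that rest on it are given below. The mouse receptor probes separated the strains. Nr1i2 lay at 2.98 ± 0.11 in C3H controls (SD, n = 3) and at -4.55 ± 0.74 in hCAR/hPXR controls (SD, n = 7), where it was well above background on 1 of 7 arrays. The main Nr1i3 probe lay at 3.23 ± 0.18 (SD, n = 3) against -1.02 ± 0.10 (SD, n = 7), still well above background on all 7, whereas a second Nr1i3 probe was above it on 0 of 7. Both genes were higher in every C3H control than in every hCAR/hPXR control (two-sided exact permutation test, p = 0.0167, the smallest these group sizes allow).

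The 2 effects overlapped in part. Called rises numbered 2901 probes in C3H mice, 10.9% of those tested, and called falls 3614, or 13.5%. The hCAR/hPXR effect had 8473 rises, 31.7%, and 5530 falls, 20.7%. These calls follow the group sizes as well as the effects, since the median standard error was 0.21 for the C3H effect and 0.14 for the hCAR/hPXR effect, and effects of at least 2-fold were called for 2767 and 2374 probes. The difference itself was called higher in C3H mice for 1949 probes, 7.3%, and lower for 3911, 14.7%, of which 2457 in either direction differed by at least 2-fold. The split between higher and lower followed the scaling of the arrays. It was 33.3% higher here, 47.3% after quantile normalization and 49.1% when the percentile was taken over detected probes only. That last scaling moved the median hCAR/hPXR effect over all tested probes from 0.13 to -0.04 and the median C3H effect from -0.08 to -0.12. It also turned the split of the hCAR/hPXR calls, to 4684 rises and 7166 falls, or from 60.5% to 39.5% higher. Across the 26687 tested probes the 2 effects correlated at Pearson's r = 0.43, a description across probes, which share arrays and are not independent replicates.

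A shared effect was defined as a call in the same direction in both strains with the 95% interval of the difference inside a 2-fold change either way. It held for 1769 probes, 6.63% of those tested, of which 1031 rose and 738 fell. Of the 5860 called differences, 1906 had a called effect in C3H mice and none in hCAR/hPXR mice, 636 of them rises and 1270 falls. A further 2666 had a called effect in hCAR/hPXR mice and none in C3H mice, 1824 of them rises and 842 falls. A called effect in both strains in the same direction was larger in C3H mice for 407 probes and larger in hCAR/hPXR mice for 31. Opposite called effects were found for 600 probes, of which 98 rose and 502 fell in C3H mice. With the slide as a block, 658 differences were called, 2.47% of tested probes, 329 hCAR/hPXR effects, 1.23%, and 62 shared effects.

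**Figure D1:**
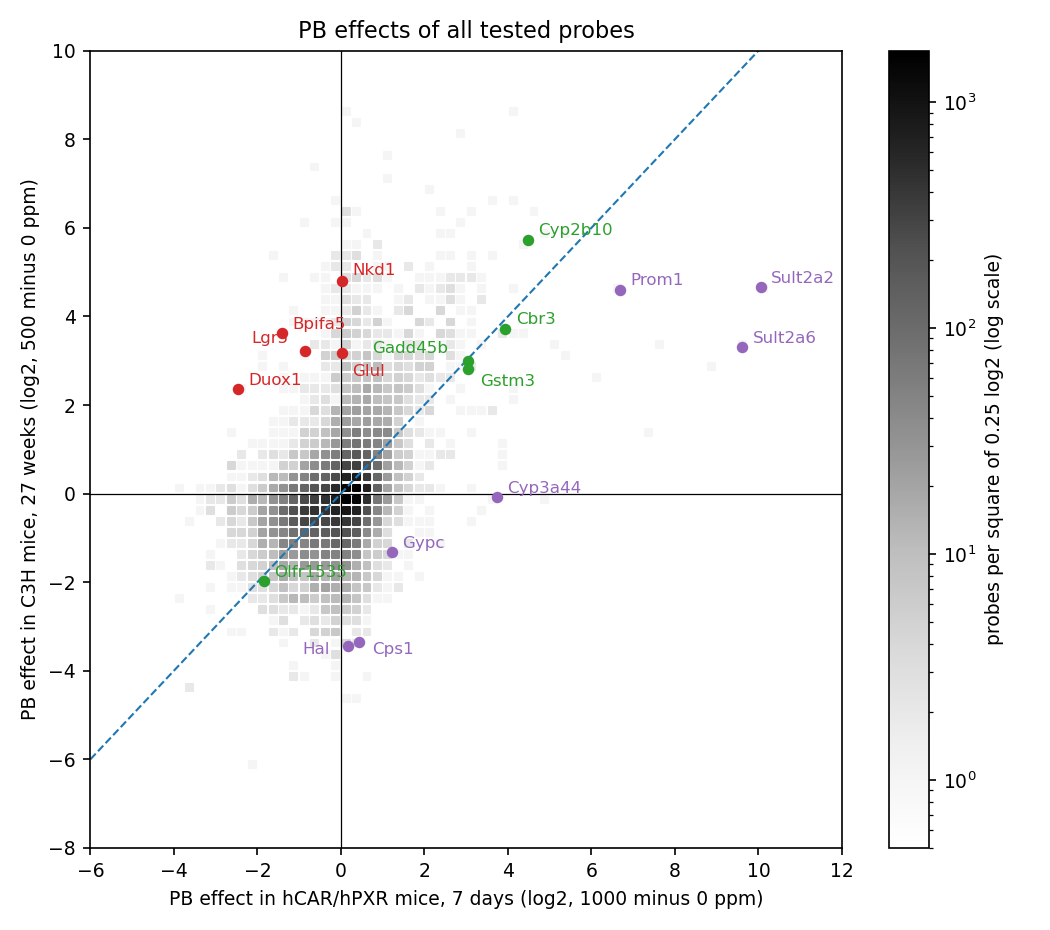
Phenobarbital effect of each tested probe in hCAR/hPXR mice (7 days, x axis, log2) against that in C3H mice (27 weeks, y axis, log2), with the number of probes per bin in shades and named genes as points (PB, phenobarbital). Green genes changed the same way in both strains and lie near the dashed line of equal effects, although Cyp2b10 was called higher in C3H mice, red genes were called higher in C3H mice and lie above it, and purple genes were called lower and lie below it. Over the 26687 probes Pearson's r was 0.43.

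The shared rises with the largest effects were mostly enzymes of drug and stress metabolism. Cbr3, a carbonyl reductase and NRF2 target, rose by 3.73 ± 0.27 in C3H mice (adjusted p = 1.37e-08) and by 3.94 ± 0.17 in hCAR/hPXR mice (adjusted p = 2.38e-11). Its level was -0.97, -0.43 and -0.58 in the 3 C3H controls and 3.01, 2.98 and 3.19 in the 3 C3H phenobarbital animals. In hCAR/hPXR mice the lowest, median and highest levels were -0.38, -0.05 and 0.42 in controls and 3.28, 4.11 and 4.37 with phenobarbital. Every treated animal of either strain lay above every control of its strain. The difference was -0.21 ± 0.32, with a 95% interval of -0.88 to 0.46. Gadd45b, a stress-response gene that CAR activators induce in liver, rose by 2.99 ± 0.34 in C3H mice and 3.05 ± 0.22 in hCAR/hPXR mice, a difference of -0.06 ± 0.41. Its C3H levels were -1.09, 0.60 and -0.48 in controls and 2.16, 2.55 and 3.28 in treated animals, and its hCAR/hPXR levels ran as -0.47, -0.13 and 0.29 in controls and 2.33, 2.98 and 3.22 in treated animals for the lowest, median and highest. Treated and control animals did not overlap in either strain. Gstm3, a glutathione S-transferase of the mu class, rose by 2.82 ± 0.21 and 3.04 ± 0.14. Levels in C3H mice were 6.41, 6.36 and 6.38 against 8.78, 9.24 and 9.57, and in hCAR/hPXR mice the lowest, median and highest were 5.54, 5.83 and 6.37 against 8.60, 8.94 and 9.19, with no overlap in either strain. The other shared rises with the largest effects were Gstm2 (C3H 3.08, hCAR/hPXR 2.68), Gstm4 (2.24 and 2.52), the steroid hydroxylase Cyp2a4 (1.98 and 1.69), Arhgap1 (1.77 and 1.40), and Nol3, an apoptosis repressor (1.38 and 1.32). The difference of Gstm2, 0.41 here, became 0.66 by limma (adjusted p = 0.0430) without C3H phenobarbital animal 1. The Gstm genes, like the Cyp2a, Cyp2b, Cyp2c, Cyp3a and Sult2a genes below, have near-identical copies, and how far each probe reads its copies was not tested.

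The 8 largest shared falls were led by genes outside drug metabolism. Ptk2b, a calcium-dependent tyrosine kinase, fell by 1.82 ± 0.21 in C3H mice and fell by 1.502 ± 0.14 in hCAR/hPXR mice. Its C3H levels were 4.56, 4.22 and 4.41 in controls and 3.27, 2.25 and 2.23 in treated animals, and in hCAR/hPXR mice the lowest, median and highest were 3.20, 3.39 and 3.55 in controls and 1.53, 1.92 and 2.05 in treated animals. All treated animals lay below all controls of their strain. Its difference of -0.31 became -0.66 (adjusted p = 0.0115) without C3H phenobarbital animal 1. Large2, a glycosyltransferase that extends the sugar chains of dystroglycan, had effects of -1.65 in C3H and -1.59 in hCAR/hPXR mice. Neither fall was as large on a second, dimmer probe of the same gene, which gave -0.20 and -0.44 for Ptk2b and -0.32 and -0.03 for Large2. The effects were -1.55 and -1.38 for the keratin Krt80, -1.21 and -1.25 for Aanat, which makes the melatonin precursor, and -1.98 and -1.85 for the olfactory receptor gene Olfr1535. Tex22, Pnldc1 and Rhox2e completed the 8, with C3H effects of -1.52, -1.33 and -1.11 and hCAR/hPXR effects of -1.45, -1.18 and -1.08. The C3H call of Rhox2e was lost without treated animal 2 or 3.

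Of 23 tested P450 genes known to respond to CAR or PXR, 17 rose and 1 fell in C3H mice, and 19 rose in hCAR/hPXR mice, with median effects of 1.40 and 1.25 against -0.08 and 0.13 over all tested probes. The effect was shared for 6, higher in C3H mice for 8 and lower for 3. Among all tested probes 6.63% were shared, and the difference was called higher for 7.3% and lower for 14.7%. Rises made up 10.9% of them in C3H and 31.7% in hCAR/hPXR mice. Blocking on the slide, 10 rose in hCAR/hPXR mice and the difference was called for 3 of the 23, of which 2 were higher in C3H mice. Cyp2b10, the classical target of CAR in mouse liver, stood at 3.97, 4.72 and 4.53 in C3H controls and 9.85, 10.13 and 10.45 in treated C3H mice. In hCAR/hPXR mice its lowest, median and highest levels were 4.79, 5.25 and 6.38 in controls and 9.63, 9.94 and 10.08 with phenobarbital, and no treated animal overlapped the controls in either strain. Its effect was 5.74 ± 0.31 in C3H mice and 4.49 ± 0.20 in hCAR/hPXR mice, a difference of 1.25 ± 0.37 (adjusted p = 0.0217). The call was lost without C3H control 1 or C3H phenobarbital animal 3, and within the first slide the difference was 1.53 ± 0.51 (adjusted p = 0.130). Cyp2c55, another CAR and PXR target, had C3H levels of 2.18, 2.38 and 2.501 in controls and 6.51, 6.68 and 7.20 with phenobarbital, and hCAR/hPXR levels of 1.39, 2.62 and 2.87 and 5.46, 5.74 and 6.02 for the lowest, median and highest, again with no overlap. Its effects of 4.45 and 3.30 differed by 1.15 ± 0.34 (adjusted p = 0.0212), a call lost without the same 2 arrays.

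Larger differences within the P450 list ran in both directions, and leaving out 1 array left between 5 and 10 members called higher in C3H mice. Cyp2c66 rose by 5.89 in C3H mice and 2.72 in hCAR/hPXR mice, a difference of 3.17 ± 0.48 (adjusted p = 0.000268). Cyp2b13, a female-biased gene of the Cyp2b cluster, rose by 6.45 and 2.34, a difference of 4.11 ± 0.96. Cyp3a44, also female-biased, rose by 3.74 ± 0.34 in hCAR/hPXR mice, against -0.09 ± 0.53 in C3H mice, and this difference of -3.82 ± 0.63 had an adjusted p of 0.000546. Its C3H levels were -1.23, -1.01 and -0.42 in controls and -1.28, -1.68 and 0.04 in treated animals, which overlapped, whereas the hCAR/hPXR levels went from -3.19, -2.84 and -2.22 to -0.34, 1.11 and 2.06 (lowest, median and highest) without overlap. Cyp3a25 fell by 0.95 ± 0.16 in C3H mice and rose by 0.78 ± 0.11 in hCAR/hPXR mice. For Cyp3a11, the main inducible mouse Cyp3a, 2 bright probes disagreed. The brighter had an effect of -0.20 ± 0.13 in C3H and 0.18 ± 0.08 in hCAR/hPXR mice and passed in neither, whereas the other had effects of 0.21 and 1.23, a difference of -1.03 (adjusted p = 0.00451). Cyp1a2, which lies in the pericentral zone and is inducible by CAR, rose by 2.04 and 1.04, a difference of 0.99 ± 0.33 (adjusted p = 0.0384) that was called in 9 of the 20 fits that left out 1 array. Without C3H phenobarbital animal 2 or 3 its adjusted p was 0.106 or 0.0894.

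Por, the reductase that passes electrons to every microsomal P450, rose more in C3H mice. Its levels were 5.40, 5.42 and 5.23 in C3H controls and 7.56, 7.43 and 7.76 with phenobarbital, and 6.23, 6.505 and 6.84 and 7.42, 7.57 and 7.83 in hCAR/hPXR mice (lowest, median and highest). Controls and treated animals did not overlap in either strain, and the difference of the effects was 1.13 ± 0.18 (adjusted p = 0.000476). Of 16 tested genes of haem synthesis and P450 electron supply, 4 rose in C3H mice and 11 in hCAR/hPXR mice, with median effects of 0.22 and 0.39, and the difference was called for 2 in each direction. Over all tested probes 10.9% rose in C3H and 31.7% in hCAR/hPXR mice, and the difference was called higher for 7.3% and lower for 14.7%. With the slide as a block 1 of the hCAR/hPXR rises was called. Alas1, the first enzyme of haem synthesis, showed 0.90 ± 0.44 and 0.28 ± 0.29 and passed in neither strain.

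The sulfotransferases of the Sult2a cluster, which sulfate bile acids and steroids, separated the experiments most among the conjugation genes. Sult2a6 had C3H levels of -2.64, -1.83 and -1.84 in controls and 0.88, 1.35 and 1.40 with phenobarbital. Its hCAR/hPXR levels went from -5.56, -4.75 and -4.41 to 3.13, 5.01 and 6.11 (lowest, median and highest), with no control above background, so that the rise on this probe was at least 303-fold. The fitted difference was -6.31 ± 0.68 (adjusted p = 7.05e-06). A bound of this kind sets the treated mean against the lowest signal that was well above background on each control array. It takes no account of the spread between animals. A second, dimmer Sult2a6 probe gave smaller values, with effects of 3.38 in C3H and 7.65 in hCAR/hPXR mice and a difference of -4.265 (adjusted p = 0.0369). Sult2a2 rose at least 15.4-fold in C3H mice and at least 271-fold in hCAR/hPXR mice, and Sult2a1 at least 3.43-fold and at least 116-fold. Sult2a2 levels were -3.33, -3.04 and -5.02 in C3H controls, 0.45, 1.14 and 1.02 in treated C3H mice, and -6.20, -5.74 and -4.18 and 2.65, 4.65 and 5.90 in hCAR/hPXR controls and treated mice (lowest, median and highest), so that the treated groups of both strains stood clear of their controls. Of the 35 tested conjugation genes as a whole, 22 rose and 3 fell in C3H mice, 31 rose and 1 fell in hCAR/hPXR mice, 15 rising under the slide block, and the effect was shared for 13. The difference was called higher in C3H mice for 2 of the 35 and lower for 11, and the sign of the list's median difference of -0.39 turned under normexp background correction. Of all tested probes 10.9% rose in C3H and 31.7% in hCAR/hPXR mice. Their difference was called higher for 7.3% and lower for 14.7%, and 6.63% were shared. The 3 glutathione transferases with the largest shared rises, Gstm2, Gstm3 and Gstm4, belong here, whereas Gsta1 of the alpha class rose less in C3H mice (1.86 ± 0.41) than in hCAR/hPXR mice (3.71 ± 0.27), a difference with an adjusted p of 0.0128.

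Among 19 tested transporters, 4 effects were higher and 4 lower in C3H mice, beside 7.3% and 14.7% of all tested probes. Abcc4, a basolateral exporter of bile acids and drug conjugates, had levels of -2.31, -1.91 and -1.93 in C3H controls and 3.87, 4.94 and 5.16 with phenobarbital. The hCAR/hPXR levels were -1.25, -0.63 and -0.27 in controls and 2.66, 2.92 and 3.29 in treated animals (lowest, median and highest), again without overlap. The effects of 6.70 ± 0.28 and 3.62 ± 0.19 differed by 3.08 ± 0.34 (adjusted p = 9.00e-06). Abcb1a, the drug exporter P-glycoprotein, rose by 2.34 and 0.74, a difference of 1.60 ± 0.31. Slc22a7, an organic anion transporter, fell by 2.84 ± 0.42 in C3H mice and had an effect of -0.0017 ± 0.28 in hCAR/hPXR mice. In the NRF2 target list of 20 tested genes, 10 rose in C3H mice and 15 in hCAR/hPXR mice, beside 10.9% and 31.7% of all tested probes. In this list 5 effects were shared, and Nqo1, a quinone reductase, rose by 2.73 and 2.29.

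**Figure D2:**
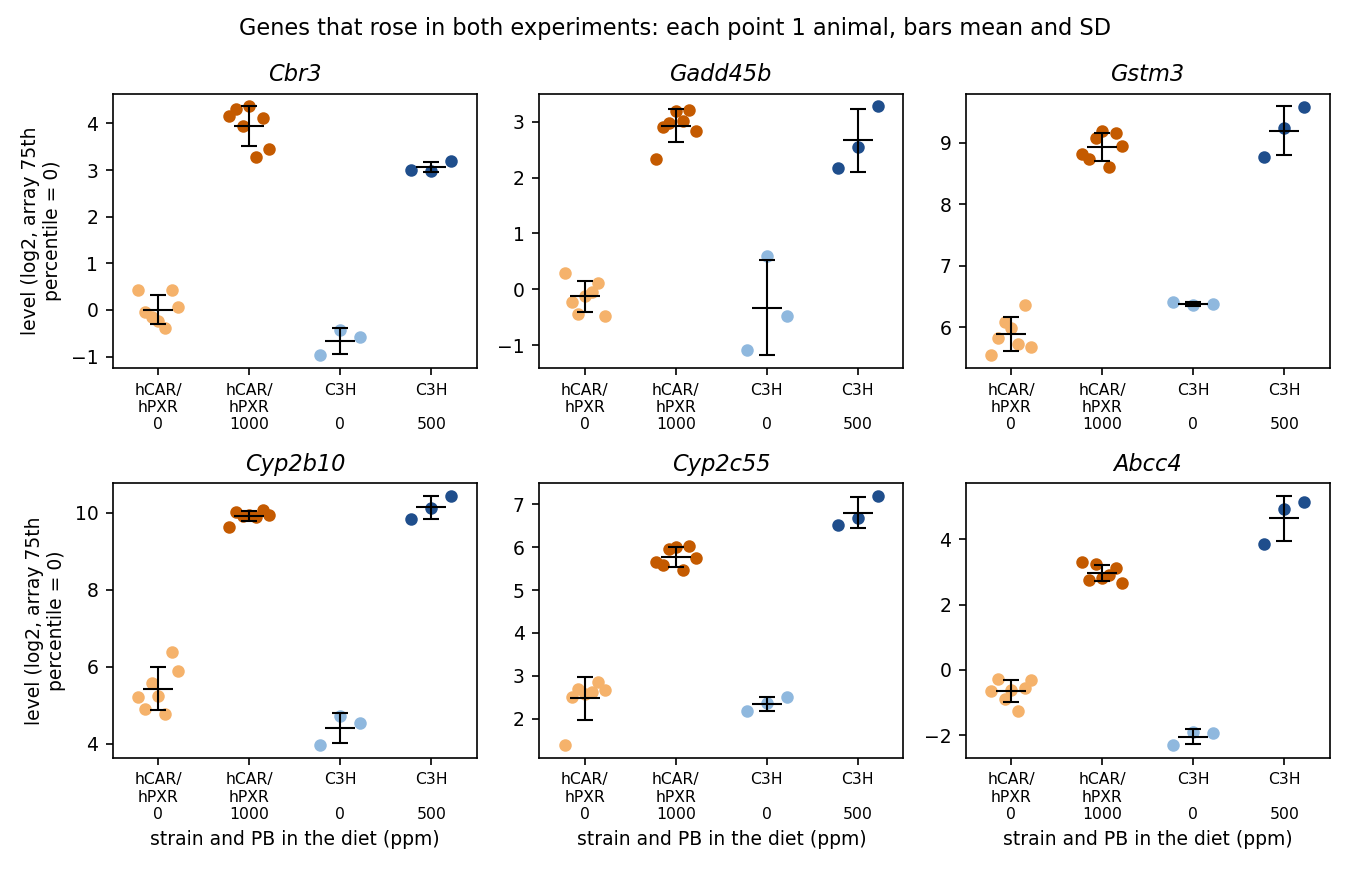
Levels (log2 signal relative to the array's 75th percentile, y axis) of Cbr3, Gadd45b, Gstm3, Cyp2b10, Cyp2c55 and Abcc4 in each animal of the 4 groups, with bars at group means. For the 6 genes every treated animal lies above every control of its strain, and the effects differ by -0.21 for Cbr3, which did not pass, and are larger in C3H mice for Abcc4 (difference 3.08).

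Cell cycle genes rose in both experiments, and many rose more in C3H mice. Of 39 tested members of a list of 44, 36 rose in C3H mice and 36 in hCAR/hPXR mice, with medians of 3.07 and 1.80. Of all tested probes 10.9% rose in C3H and 31.7% in hCAR/hPXR mice. Only 22 of the 39 were detected on all 20 arrays. The others could pass the filter through a treated group where they are high, which can tilt these counts and medians toward a rise. The effect was shared for 8, and the difference was called for 16, all higher in C3H mice (median difference 1.24 against -0.13 over all tested probes). Under the slide block 6 rose in hCAR/hPXR mice and the difference was called for 4, and with the C3H arrays fitted alone 29 rose in C3H mice, a fit that called 4.71% of all tested probes higher and 3.68% lower. The promoters of several of these genes carry short elements known from cell cycle control, the CCAAT box read by NF-Y and the cell cycle gene homology region, whose core is TTTGAA. In the 250 bases before the annotated start, CCAAT on either strand was present in 27 of the 33 tested members with a promoter sequence, 81.8%, against 10133 of 27025 genes, 37.5%. CCAAT was not particular to this list: in the cholesterol synthesis and uptake list it was present in 16 of 17 such members, 94.1%. TTTGAA on either strand was present in 10 of the 33, 30.3%, against 18.3% of all genes, and both motifs together in 10 of the 33 against 6.45%. The promoters of 4 members are shown to set these letters beside genes that rose in both strains: Cdk1, Cdc20 and Top2a, with a called difference, and Ccnb2, with effects of 3.68 and 2.80 and a difference of 0.88 ± 0.71 that did not pass. The sequences are the 150 bases before the start from RefSeq, build GRCm38.p6, 5′ to 3′ in the direction of the gene, which is on the minus strand for all 4, with CCAAT or its complement ATTGG and TTTGAA or its complement TTCAAA in capitals. They lie at chr10:69352913-69353062 (Cdk1), chr4:118437344-118437493 (Cdc20), chr11:99024190-99024339 (Top2a) and chr9:70421555-70421704 (Ccnb2).
Cdk1: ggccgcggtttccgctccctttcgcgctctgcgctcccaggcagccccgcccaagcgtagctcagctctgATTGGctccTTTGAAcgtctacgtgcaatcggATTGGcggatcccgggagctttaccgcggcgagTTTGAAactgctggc
Cdc20: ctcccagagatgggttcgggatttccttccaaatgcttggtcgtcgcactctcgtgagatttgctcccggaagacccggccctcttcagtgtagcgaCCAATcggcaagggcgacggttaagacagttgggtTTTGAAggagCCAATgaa
Top2a: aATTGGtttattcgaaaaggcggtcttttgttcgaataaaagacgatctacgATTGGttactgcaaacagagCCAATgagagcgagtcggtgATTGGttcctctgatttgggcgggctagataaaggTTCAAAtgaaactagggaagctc
Ccnb2: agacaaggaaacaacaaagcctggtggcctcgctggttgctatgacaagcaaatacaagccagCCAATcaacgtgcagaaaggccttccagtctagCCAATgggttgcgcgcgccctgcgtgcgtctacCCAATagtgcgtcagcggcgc
Cdk1 carries 2 matches of each motif, Cdc20 2 of CCAAT and 1 of TTTGAA, Top2a 4 and 1, and Ccnb2 3 of CCAAT alone in these 150 bases. A match is a description of letters, and binding was not measured.

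The single members differed in how far the strains parted. Ccnd1, the D-type cyclin that starts the cycle in hepatocytes, had C3H levels of 0.78, 1.12 and 0.93 in controls and 2.89, 3.16 and 3.96 with phenobarbital. In hCAR/hPXR mice the lowest, median and highest were 0.95, 1.07 and 1.32 and 1.44, 1.64 and 1.92. Neither strain's groups overlapped. Its effects were 2.39 ± 0.20 and 0.56 ± 0.13, and the difference of 1.83 ± 0.24 had an adjusted p of 5.82e-05. Mki67, the proliferation antigen, had C3H levels of -2.496, -1.36 and -2.57 against 1.73, 2.48 and 3.33 and hCAR/hPXR levels of -1.89, -0.70 and -0.21 against 1.05, 1.34 and 1.83. Treated and control mice did not overlap in either strain, and the effects of 4.65 ± 0.45 and 2.36 ± 0.30 differed by 2.29 ± 0.54 (adjusted p = 0.00641). Cdk1, the mitotic kinase, was not well above background in any C3H control, at -3.495, -4.13 and -5.08, against -0.59, 0.24 and 0.97 with phenobarbital, a rise of at least 9.87-fold. Its hCAR/hPXR levels were -2.57, -1.28 and -1.07 and -0.73, -0.02 and 0.80, an effect of 1.63 ± 0.31 without overlap, and the fitted difference was 2.81 ± 0.57 (adjusted p = 0.00257). Birc5, Ccna2, Plk1 and Cdc20, which act in mitosis, rose by 4.76, 4.72, 6.21 and 5.25 in C3H mice and by 2.21, 2.51, 2.95 and 3.07 in hCAR/hPXR mice, each with a called difference. Of the genes that load or form the replicative helicase, Mcm2, Mcm3, Mcm4 and Mcm5 rose by 1.44, 1.27, 1.21 and 2.77 in C3H mice and by 1.16, 1.05, 1.12 and 2.23 in hCAR/hPXR mice, and none of their differences passed.

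Beta-catenin targets and pericentral genes held the most differences called higher in C3H mice of any list. Of 27 tested, 18 rose and 1 fell in C3H mice, 8 rose and 5 fell in hCAR/hPXR mice, and the difference was called higher in C3H mice for 19 and lower for 0. None of the 27 effects was shared. Of all tested probes 10.9% rose in C3H and 31.7% in hCAR/hPXR mice, and 7.3% had a difference called higher. Median effects were 2.19 and 0.02, and the sign of the second depended on the scaling. With the slide as a block, where it rests on phenobarbital animal 1, the hCAR/hPXR median was -0.15. Under the slide block 13 differences were called, all higher in C3H mice, and leaving out 1 array left between 15, without C3H phenobarbital animal 3, and 21. Glul, the glutamine synthetase confined to the innermost pericentral hepatocytes of normal liver, had C3H levels of 6.04, 6.04 and 6.28 in controls and 8.62, 9.65 and 9.63 with phenobarbital. The hCAR/hPXR values were 6.36, 6.59 and 6.96 in controls and 6.24, 6.71 and 6.83 in the 6 treated animals with a usable spot, and these overlapped. Effects of 3.18 ± 0.22 and 0.03 ± 0.15 gave a difference of 3.15 ± 0.27 (adjusted p = 7.55e-07), and 3.57 ± 0.35 within the first slide.

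Nkd1, a negative-feedback target of the Wnt pathway, showed the largest such difference among probes detected on all arrays in this list. Levels in C3H mice were -0.08, -0.24 and -0.25 and 3.66, 5.39 and 4.78, and its hCAR/hPXR levels were -0.15, 0.24 and 0.32 and -0.02, 0.13 and 0.42 (lowest, median and highest), which overlapped. The effects were 4.80 ± 0.27 and 0.02 ± 0.18, a difference of 4.78 ± 0.32 (adjusted p = 2.40e-08), and another Nkd1 probe gave 1.42. Lgr5, the R-spondin receptor of pericentral hepatocytes, moved in opposite directions in the fit without the slide block. It rose from -0.68, -0.43 and -0.44 to 1.70, 2.997 and 3.38 in C3H mice and fell from 0.58, 1.005 and 1.25 to -0.28, 0.15 and 0.33 in hCAR/hPXR mice (lowest, median and highest), effects of 3.21 ± 0.29 and -0.86 ± 0.19 that differed by 4.07 ± 0.34 (adjusted p = 4.13e-07). Axin2, the general Wnt target, rose at least 9.40-fold in C3H mice and fell by 1.005 ± 0.34 in hCAR/hPXR mice. The hCAR/hPXR falls of Lgr5 and Axin2 also compare slides, since only phenobarbital animal 1 shared the slide of the controls. For Lgr5 that animal lay at 0.33, the highest treated level, and below every control. Sp5, Lef1, Tcf7 and Rnf43, also in or under the Wnt pathway, had C3H effects of 4.12, 4.65, 2.81 and 2.78 against -0.28, 0.01, -0.23 and 0.25, with Lef1 below background in all C3H controls. Rhbg and Slc1a2, pericentral carriers of ammonium and glutamate, rose by 3.75 ± 0.25 and 2.46 ± 0.25 in C3H mice. Dkk4, a secreted Wnt inhibitor, was the member that fell in C3H mice, with an effect of -2.13 ± 0.76, and its difference did not pass. Ctnnb1, the beta-catenin gene itself, had effects of 0.28 ± 0.10 and 0.01 ± 0.07, neither called. Cyp2e1, a pericentral P450, had effects of -0.00040 ± 0.23 and 0.13 ± 0.15 and was not called in either strain.

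Periportal genes ran the other way in C3H mice. Of 21 tested, 19 fell and 0 rose in C3H mice, with a median of -2.42, and 2 rose and 0 fell in hCAR/hPXR mice, with a median of -0.06. The difference was called lower for 17. Of all tested probes 13.5% fell in C3H mice, 31.7% rose in hCAR/hPXR mice, and 14.7% had a difference called lower. The 3 treated C3H animals differed widely, and the fit shares its estimate of the spread among the 4 groups. With the C3H arrays fitted alone 3 of the 21 were called lower. Under the slide block 0 of the differences were called by limma, and 17 were lower and 1 higher at an unadjusted p under 0.05. In a bulk sample, fewer cells of a type and less RNA per cell cannot be told apart. Cps1, the first enzyme of the urea cycle, had C3H levels of 6.14, 6.001 and 6.18 in controls and 5.17, 2.74 and 0.39 in the treated animals. All 3 treated animals lay below all 3 controls, with animal 1 close to them and animal 3 farthest below. The hCAR/hPXR levels were 3.61, 5.52 and 5.86 and 5.502, 5.73 and 5.91 (lowest, median and highest) and overlapped. The C3H effect was -3.34 ± 0.74 (adjusted p = 0.00285, and 0.106 with the C3H arrays alone). The difference was -3.78 ± 0.88 (adjusted p = 0.00597), -2.60 without treated animal 3 and -4.98 without treated animal 1.

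Hal, which starts histidine breakdown, had C3H levels of 7.02, 6.76 and 7.05 and 6.02, 3.65 and 0.82 and hCAR/hPXR levels of 5.93, 6.31 and 6.42 and 5.79, 6.42 and 6.81. The C3H groups did not overlap and the hCAR/hPXR groups did. Its effects were -3.44 ± 0.72 and 0.16 ± 0.47, and its C3H effect had an adjusted p of 0.119 with the C3H arrays alone. G6pc, the last enzyme of glucose release, had C3H levels of 8.09, 7.86 and 7.09 and 4.09, 5.28 and 5.58 and hCAR/hPXR levels of 5.82, 6.88 and 7.25 and 5.92, 6.66 and 7.41, with the same pattern of overlap. The effects were -2.70 ± 0.40 and -0.08 ± 0.26, and the C3H call was held with the C3H arrays alone (adjusted p = 0.0243). Arg1 and Ass1 of the urea cycle, Gls2, the liver glutaminase, and Cyp2f2, a periportal P450, fell in C3H mice, with effects of -3.18 ± 0.67, -2.21 ± 0.40, -3.20 ± 0.76 and -2.91 ± 0.70, against hCAR/hPXR effects of -0.01, -0.06, -0.12 and -0.15. In the wider list of glucose and amino acid metabolism 14 of 26 tested genes fell and 0 rose in C3H mice. In hCAR/hPXR mice 2 fell and 7 rose, beside 20.7% and 31.7% of all tested probes. The difference was called lower for 13 of the 26. With the C3H arrays alone 3 falls were called.

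General hepatocyte markers, a list that also holds Cps1 and Tat, fell in C3H mice as well. Their summed linear level, in multiples of the array's 75th percentile, was 8188 to 9866 in C3H controls and 6410 to 7059 in treated C3H mice, against 4344 to 5344 and 3903 to 5311 in hCAR/hPXR mice. Of the 9 tested hepatocyte markers 7 fell in C3H mice, with a median of -0.57, among them Alb at -0.71 ± 0.17. Falls in C3H mice made up 13.5% of all tested probes. With the C3H arrays alone 2 of the 9 fell, and after quantile normalization 3 fell, with a median of -0.27 and Alb at -0.24. Of 23 tested secreted hepatocyte proteins 16 fell in C3H mice, against 4 with the C3H arrays alone, and the difference was called lower for 13 here, for 2 after quantile normalization and for 0 under the slide block (6 at an unadjusted p under 0.05 by limma). Igf1, the liver-derived growth factor, fell by 1.73 ± 0.24, against -0.17 ± 0.16 in hCAR/hPXR mice. The part of a change in hepatocyte content in the periportal values was not tested.

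**Figure D3:**
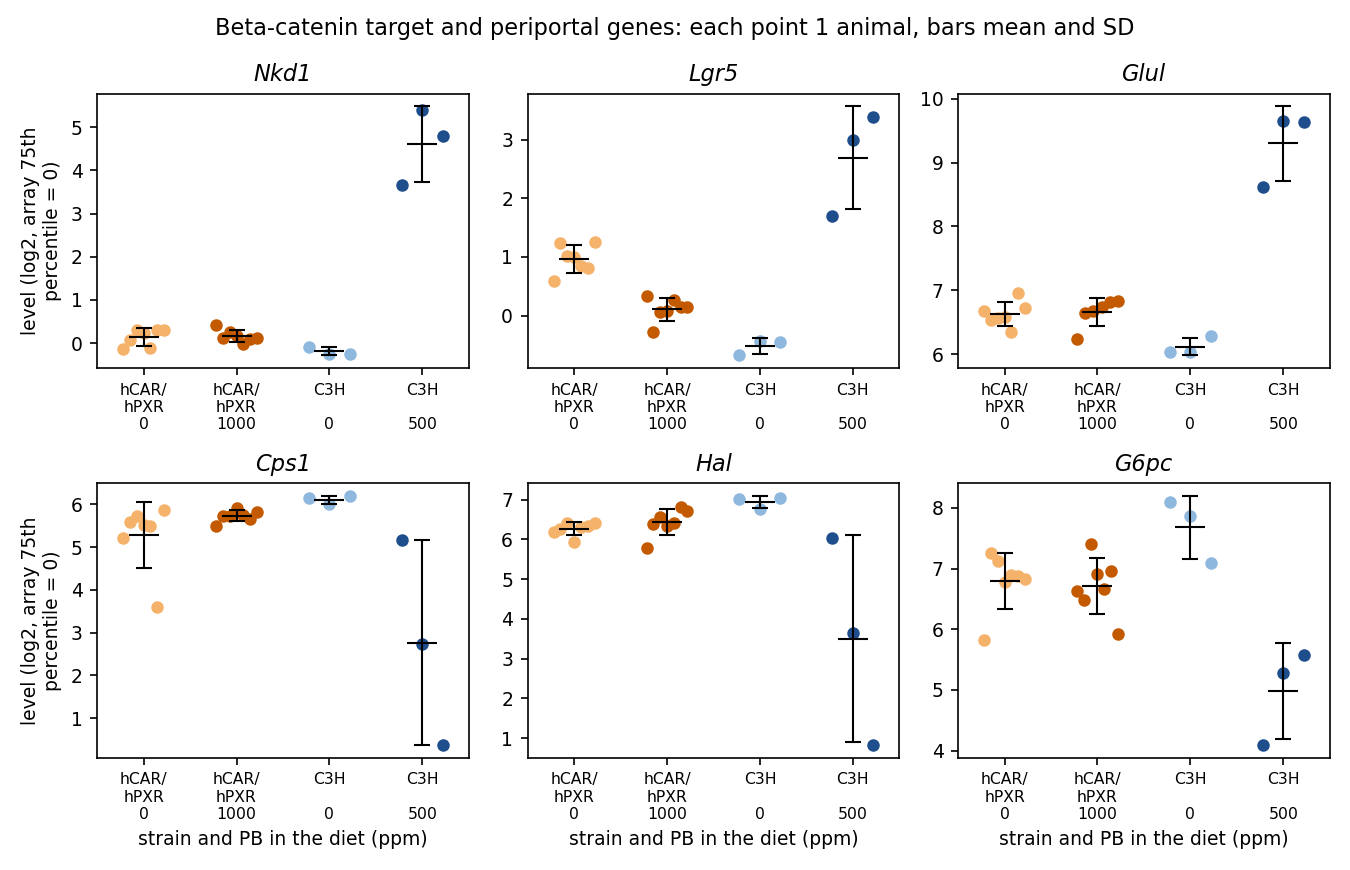
Levels (log2 signal relative to the array's 75th percentile, y axis) of the beta-catenin and pericentral genes Nkd1, Lgr5 and Glul and the periportal or gluconeogenic genes Cps1, Hal and G6pc in each animal of the 4 groups, with bars at group means. The 3 treated C3H mice lie above their controls for the first 3 genes and below them for the last 3, with effects from 4.80 for Nkd1 to -3.44 for Hal.

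**Figure D4:**
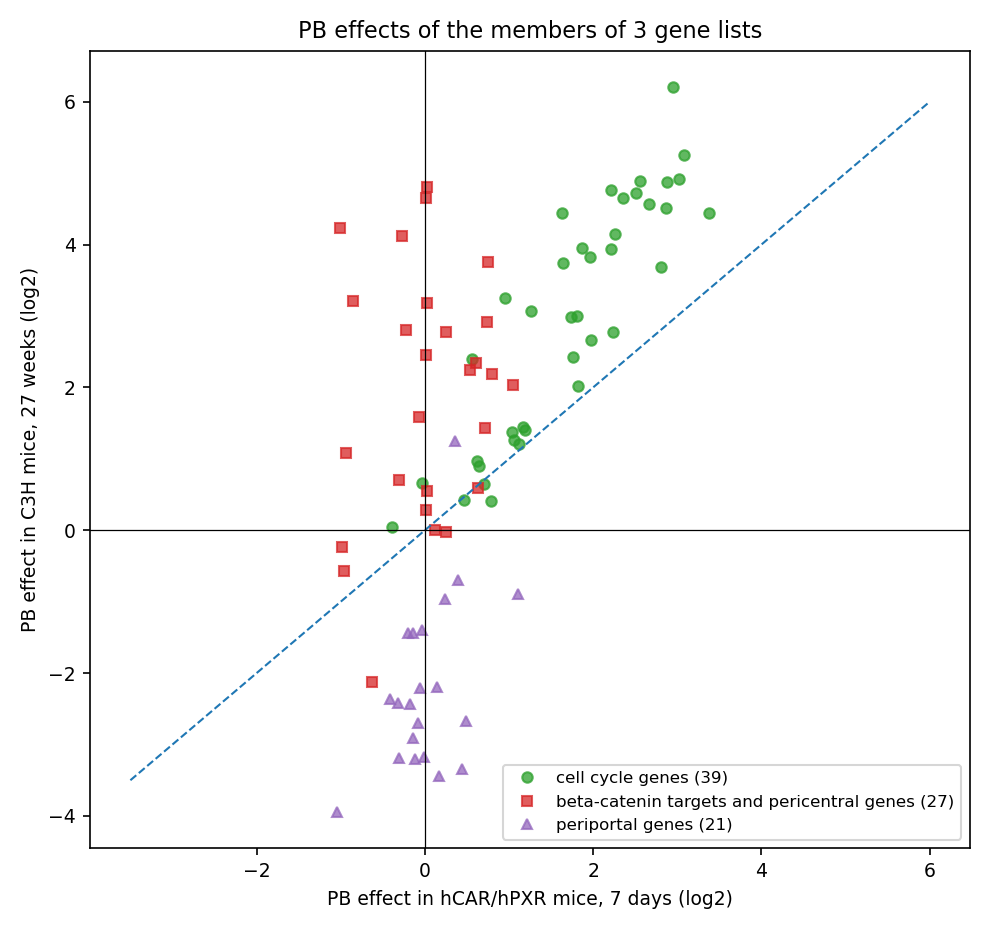
C3H effect (y axis, log2) against hCAR/hPXR effect (x axis, log2) for each tested member of the cell cycle (39 genes), beta-catenin and pericentral (27) and periportal (21) lists. Cell cycle genes spread to the upper right, with 36 rises in either strain, whereas the other 2 lists spread mostly along the C3H axis, upward with 18 rises and downward with 19 falls.

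The largest differences among probes detected on every array lay partly outside the lists. Bpifa5, of a family of secreted lipid-binding proteins, had C3H levels of -1.495, -1.61 and -2.29 in controls and 2.49, 2.14 and 0.85 with phenobarbital, and hCAR/hPXR levels of -0.73, -0.25 and -0.13 and -2.75, -1.72 and -0.82 (lowest, median and highest). The groups did not overlap in either strain. It rose by 3.62 ± 0.39 in C3H mice and fell by 1.41 ± 0.25 in hCAR/hPXR mice, a difference of 5.03 ± 0.46 (adjusted p = 9.89e-07). Duox1, an oxidase that makes hydrogen peroxide, had C3H levels of -1.97, -2.19 and -2.41 and -1.16, 0.85 and 0.81 and hCAR/hPXR levels of -0.500, -0.13 and 0.23 and -3.01, -2.82 and -1.32, again without overlap. The effects were 2.35 ± 0.44 and -2.48 ± 0.29, and the C3H effect had an adjusted p of 0.0521 with the C3H arrays alone. Gadd45g, of the same family as Gadd45b, rose by 2.28 ± 0.64 in C3H mice and fell by 1.32 ± 0.42 in hCAR/hPXR mice, unlike the shared rise of Gadd45b. Levels in C3H mice were 3.80, 3.60 and 3.17 and 5.93, 5.62 and 5.86, and its hCAR/hPXR levels 4.98, 6.04 and 6.69 and 2.87, 5.26 and 6.03, where the groups overlapped. Teddm1a and Scn4b, a sodium channel subunit, were the remaining opposite genes that rose in C3H mice, with effects of 1.86 and -1.27, and 1.23 and -1.15.

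Maoa, the monoamine oxidase, rose by 4.44 ± 0.26 in C3H mice and had an effect of 0.01 ± 0.17 in hCAR/hPXR mice. Nxpe2, Calml4, a calmodulin-like protein, and H2-Q1, of the class I histocompatibility family, had C3H effects of 3.84, 5.56 and 3.95 against -0.94, 0.95 and -0.65. Opposite genes that fell in C3H mice had smaller effects. Gypc, a membrane glycoprotein, had C3H levels of 2.44, 2.74 and 3.30 and 2.502, 1.42 and 0.61 and hCAR/hPXR levels of 1.97, 2.49 and 2.74 and 3.47, 3.68 and 3.81, of which the C3H groups overlapped, with effects of -1.32 ± 0.32 and 1.23 ± 0.21. The C3H effect of Gypc had an adjusted p of 0.136 with the C3H arrays alone. Osgin1, an NRF2-responsive growth inhibitor, had C3H levels of 7.55, 7.75 and 7.52 and 6.02, 6.36 and 6.63 and hCAR/hPXR levels of 4.76, 5.41 and 5.90 and 5.87, 6.55 and 7.06, of which the latter overlapped, with effects of -1.27 ± 0.30 and 1.13 ± 0.20. Acmsd, which steers tryptophan breakdown away from NAD synthesis, had levels of 2.36, 2.54 and 2.56 and 1.53, 1.47 and 1.73 in C3H mice and 1.23, 1.35 and 1.70 and 1.77, 2.29 and 2.89 in hCAR/hPXR mice, without overlap, and effects of -0.91 ± 0.20 and 0.99 ± 0.13. Sulf2, an extracellular heparan sulfatase, and Sdc1, a heparan sulfate proteoglycan, had C3H effects of -1.05 and -0.95 and hCAR/hPXR effects of 1.60 and 1.09. Their C3H calls were less secure. The C3H effect of Sulf2 had an adjusted p of 0.196 with the C3H arrays alone and was -0.62 (adjusted p = 0.275) without treated animal 3, and its call was also lost without treated animal 2. The C3H call of Sdc1 was lost without treated animal 2 (adjusted p = 0.112) or 3 (adjusted p = 0.0887). The other genes among the 8 largest differences on the lower side were Hsd17b6 and Rdh16f2, which oxidise steroids and retinoids, Hamp2, of the hepcidin family, Gldc, of the glycine cleavage system, and Enho, which encodes adropin. Their differences were -3.73, -3.60, -3.69, -3.68 and -3.61, and the C3H effects of Hsd17b6, Gldc and Enho had adjusted p-values of 0.0795, 0.0851 and 0.0595 with the C3H arrays alone.

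Fetal liver and liver tumour markers were higher in C3H mice only in part. Of 26 tested, 13 rose and 2 fell in C3H mice and 15 rose in hCAR/hPXR mice, 1 of them called under the slide block. The difference was called higher for 8 and lower for 5, beside 7.3% and 14.7% of all tested probes, and with the C3H arrays alone 6 rose and 1 fell. Afp, the fetal serum protein, had C3H levels of -0.62, 1.75 and -0.77 in controls and 2.43, 4.998 and 4.24 with phenobarbital, and hCAR/hPXR levels of -1.84, -1.13 and -0.87 and -0.72, -0.41 and 0.23. Every treated animal was above its strain's controls. Its effects were 3.77 ± 0.56 and 0.90 ± 0.37, a difference of 2.87 ± 0.67 (adjusted p = 0.00612), and the C3H effect alone had an adjusted p of 0.0539. Dlk1, an imprinted Notch-like protein of fetal hepatoblasts, had C3H levels of -2.17, -2.35 and -2.17 and 2.64, 1.28 and 3.19 against -5.13, -2.84 and -2.48 and -4.39, -3.04 and -2.90 in hCAR/hPXR mice, where 4 of 7 controls and 3 of 7 treated arrays were well above background and the groups overlapped, a difference of 4.64 ± 0.66. Gpc3, a glypican used as a marker of liver cancer, was below background in every C3H control, at -5.42, -3.22 and -4.68, and stood at -1.65, -0.52 and 2.76 in treated mice, a rise of at least 9.80-fold. On 0 of 14 hCAR/hPXR arrays was it well above background, and its C3H effect had an adjusted p of 0.0609 with the C3H arrays alone. Meg3 and Mirg, noncoding RNAs of the same imprinted cluster as Dlk1, rose by 3.82 and 3.95 in C3H mice and by 1.86 and 0.90 in hCAR/hPXR mice.

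Other members of the list did not follow Afp. Ly6d, a surface protein of the Ly6 family, rose in both, by 8.58 ± 0.90 and 4.15 ± 0.59. Prom1, the progenitor surface marker CD133, rose more in hCAR/hPXR mice. Its C3H levels were -1.11, -0.10 and -1.09 and 3.44, 3.73 and 4.35, and its hCAR/hPXR levels were -2.07, -1.72 and -0.38 and 4.20, 5.14 and 5.62. No groups of a strain overlapped, and the effects of 4.61 ± 0.40 and 6.68 ± 0.26 differed by -2.07 ± 0.48 (adjusted p = 0.00577). Sox9, a factor of bile duct and progenitor cells, was above background in C3H controls at -2.08, -0.71 and -0.52 and in no treated C3H mouse, at -3.53, -3.45 and -4.71, a fall of at least 4.43-fold. Its hCAR/hPXR levels were -1.36, -1.20 and -0.42 and -0.88, -0.58 and -0.02, which overlapped, an effect of 0.48 ± 0.24 that did not pass.

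Several immediate-early genes rose in C3H mice. Among all tested probes 10.9% rose in C3H and 31.7% in hCAR/hPXR mice. Of 19 tested immediate-early and heat-shock genes 11 rose in C3H mice, against 8 with the C3H arrays alone, and 8 rose and 1 fell in hCAR/hPXR mice, where 3 rose and 2 fell with the percentile of detected probes and limma called 0 under the slide block (0 rises and 1 fall at an unadjusted p under 0.05). The difference was called higher in C3H mice for 8, and for 5 with the slide as a block. Fos had C3H levels of -4.88, -3.30 and -4.73 in controls, none above background, and 1.40, 2.67 and 1.29 with phenobarbital, a rise of at least 29.5-fold. In hCAR/hPXR mice its lowest, median and highest levels were -3.85, 0.39 and 1.56 and -3.36, -1.88 and 1.29, which overlapped, with an effect of -0.77. The fitted difference was 6.85 ± 1.57 (adjusted p = 0.00541). Atf3, a stress-induced transcription factor, had C3H levels of -1.57, 0.46 and -1.64 and 3.59, 5.24 and 4.59 and hCAR/hPXR levels of -3.17, -2.72 and -2.18 and -2.33, -1.997 and -1.16, the latter overlapping, with effects of 5.40 ± 0.47 and 0.85 ± 0.31 and a difference of 4.55 ± 0.56 (adjusted p = 3.56e-05). Jun, Myc and Klf6 rose by 3.14, 2.84 and 2.83 in C3H mice against effects of -0.26, 0.99 and 0.69. These genes also respond to handling of tissue at collection, and whether collection differed between the groups is not given in the sources used here. Of 17 tested p53 targets 2 were called higher in C3H mice, Btg2 (3.22 ± 0.64) and Tnfrsf10b (1.78 ± 0.41), and 0 lower by limma (1 at an unadjusted p under 0.05), beside 7.3% higher and 14.7% lower of all tested probes.

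Lipid synthesis genes had more called rises in hCAR/hPXR mice, as did all tested probes, at 31.7% against 10.9% in C3H mice. Median effects in C3H and hCAR/hPXR mice were 0.30 and 0.55 for cholesterol genes and 0.15 and 0.49 for fatty acid synthesis genes. The median differences of -0.32 and -0.20 became -0.19 and -0.08 with the percentile of detected probes. Over all tested probes the difference was called lower for 14.7%. Of 25 tested genes of cholesterol synthesis and uptake 19 rose in hCAR/hPXR mice and 3 in C3H mice, where 1 fell, and the difference was lower in C3H mice for 7. Leaving out 1 array left between 3 and 9, and with the slide as a block limma called 0 of the hCAR/hPXR rises, 7 at an unadjusted p under 0.05, and 1 difference. Acat2, which makes acetoacetyl-CoA, had C3H levels of 7.25, 7.16 and 7.44 and 6.14, 5.85 and 5.69 and hCAR/hPXR levels of 5.91, 6.22 and 6.34 and 6.04, 6.33 and 6.502. The groups overlapped in hCAR/hPXR mice alone of the 2 strains. Its effects of -1.39 ± 0.15 and 0.15 ± 0.10 differed by -1.54 ± 0.18 (adjusted p = 1.35e-05). Of 20 tested fatty acid synthesis genes 11 rose in hCAR/hPXR mice and 2 in C3H mice, and the difference was lower for 5, among them the carboxylase Acacb (-1.65 ± 0.31). The 11 rises became 7 with the percentile of detected probes, and under the slide block limma called 0 of them (8 at an unadjusted p under 0.05) and 0 differences (3 lower unadjusted). Cyp7a1, which limits the rate of the classical bile acid pathway, had effects of 0.58 ± 0.53 and 0.63 ± 0.35 that passed in neither strain, and the 95% interval of the difference was -1.37 to 1.28. Cyp8b1, which sets the cholic acid share, fell by 2.31 ± 0.42 in C3H mice, and 6 of the 14 tested bile acid genes fell there, against 2 with the C3H arrays alone.

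Acute phase proteins, secreted by the liver in inflammation, also had differences called lower in C3H mice. Of 26 tested, 14 rose in hCAR/hPXR mice and 1 rose and 5 fell in C3H mice, and the difference was lower in C3H mice for 11. Of all tested probes 31.7% rose in hCAR/hPXR mice, 10.9% rose and 13.5% fell in C3H mice, and 14.7% had a difference called lower. Between 7 and 15 were lower when 1 array was left out, 7 without C3H control 3 or C3H phenobarbital animal 3, and 6 after quantile normalization. Under the slide block limma called 0 differences, with 4 lower at an unadjusted p under 0.05. The hCAR/hPXR rise was not held there either: 0 of the 14 rises were called, 0 genes were higher and 1 lower unadjusted, and the list's median effect turned from 0.56 to -0.15. With the percentile of detected probes 9 rose. Saa1, serum amyloid A, had C3H levels of 6.44, 7.06 and 6.70 in controls and 6.21, 4.98 and 3.51 with phenobarbital and hCAR/hPXR levels of 6.66, 8.25 and 10.41 and 9.03, 10.17 and 10.46 (lowest, median and highest), which overlapped. Its C3H effect of -1.84 ± 0.81 did not pass, its hCAR/hPXR effect was 1.75 ± 0.53, and the difference was -3.59 ± 0.97 (adjusted p = 0.0138). The fibrinogen chains Fga and Fgb fell in C3H mice, with effects of -1.36 ± 0.38 and -0.99 ± 0.24, and rose by 0.60 ± 0.25 and 0.59 ± 0.16 in hCAR/hPXR mice. The C3H effect of Fga had an adjusted p of 0.0657 without treated animal 3.

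For markers of other liver cells the difference passed for a minority of the tested members of each list, beside 7.3% higher and 14.7% lower of all tested probes. Of 11 tested Kupffer cell and macrophage markers, 5 rose in hCAR/hPXR mice, 1 fell in C3H mice, and the difference was lower in C3H mice for 4, with 0 (without C3H control 3) to 8 when 1 array was left out and 1 without C3H phenobarbital animal 3. Limma called 0 rises in hCAR/hPXR mice and 0 differences under the slide block, each also 0 at an unadjusted p under 0.05. The median effect in hCAR/hPXR mice went from 0.42 to -0.03 and the median difference from -0.60 to -0.03. Their summed linear level ran from 126.8 to 170.1 in hCAR/hPXR controls, 135.8 to 276.1 in treated hCAR/hPXR mice, 99.9 to 130.3 in C3H controls and 86.0 to 102.3 in treated C3H mice. The ranges overlapped between the groups of either strain, and the part of these cells in the acute phase difference was not tested. Among 12 endothelial markers the difference was lower in C3H mice for 5, including Clec4g (-1.05 ± 0.25) and Stab1 (-0.82 ± 0.15), both of sinusoidal cells, and the pericentral Wnt enhancer Rspo3 (-1.12 ± 0.34). Without C3H phenobarbital animal 3 the 5 became 2, and the difference of Rspo3 was -0.62 (adjusted p = 0.0532). Limma called 0 endothelial differences under the slide block, with 1 lower at an unadjusted p under 0.05. Summed levels of the endothelial list were 152.5 to 165.0 in C3H controls and 94.3 to 132.7 in treated C3H mice, against 114.3 to 145.9 and 104.3 to 139.6 in hCAR/hPXR mice. The difference was called for 0 of 11 stellate cell and fibroblast markers, 0 of 9 lymphocyte, 0 of 5 neutrophil and 0 of 5 red blood cell markers. At an unadjusted p under 0.05 in the same limma fit the counts were 5, 2, 1 and 0 in that order. Of 7 bile duct markers the keratin Krt19 was higher (1.99 ± 0.45) and Sox9 and Spp1 (-2.38 ± 0.65) were lower in C3H mice, Spp1 with an adjusted p of 0.0537 without C3H phenobarbital animal 3.

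**Figure D5:**
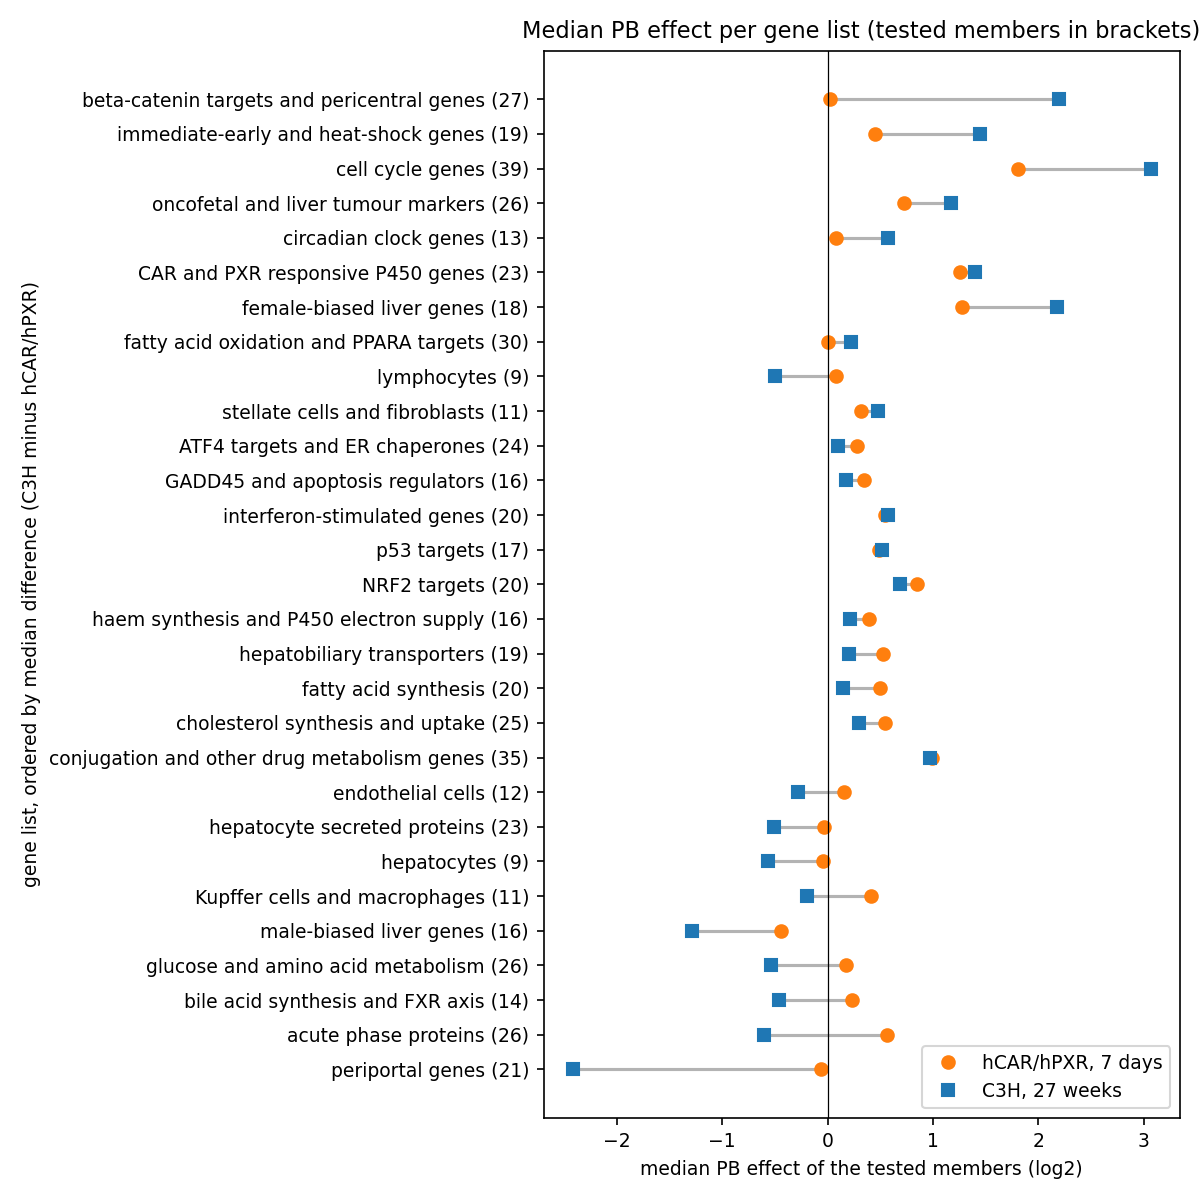
Median phenobarbital effect (log2, x axis) of each gene list with at least 9 tested members, in C3H and in hCAR/hPXR mice, ordered by the median over genes of the difference, which need not equal the gap between the 2 medians. The medians part most for the beta-catenin and pericentral list (2.19 in C3H against 0.02 in hCAR/hPXR mice) and the periportal list (-2.42 against -0.06), and by less for the P450 list (1.40 against 1.25).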

How the data were processed

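Members and gene lists were chosen with earlier results of these data known. Per the file headers, Agilent Feature Extraction 10.7.3.1 made the deposited intensity values, a background-subtracted and detrended processed signal per spot, not normalized between arrays. The deposited value table holds log2 values, used as an alternative. Spots marked as outliers were left out, replicate spots averaged, and each array's 75th percentile over 55681 non-control probes subtracted from the log2 signal. The 26687 probes well above background on every array of 1 or more groups were tested. A probe detected in only some groups can thus enter through a group where it is high, which can tilt the counts of a list. RefSeq accessions named 16840 of them with 13109 symbols (GRCm38.p6). Group means were fitted with limma 3.58.1 (R 4.3.3) over 20 arrays, with 16 residual degrees of freedom, two-sided, Benjamini-Hochberg adjusted, and tested on simulated data.

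A gene is its probe with the highest mean. Of 1133 genes with several tested probes and a called difference, 9 had probes called in opposite directions. Genes named are 15 fixed names, the largest 8 differences, shared rises and shared falls each way among probes detected on all arrays, up to 5 opposite genes each way, the 3 largest bounds, and up to 4 members per list by adjusted p; other list members are examples chosen after their values were seen. The labels call the animals of a group separate biological replicates, and same-numbered animals did not deviate together in every pair. Arrays give no counts, and the number of animals limits the precision.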

Additional observations from a re-analysis of the deposited data

Results flagged for a closer look

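Single animals stood apart from the rest of their group in 10 of the 72 hCAR/hPXR groups checked, for 36 genes whose values are given animal by animal. Chance alone flags about 1 in 20 groups. The test was Dixon's, by the gap of the outermost animal over the range of its group, and the groups of 3 C3H mice were not tested. Phenobarbital animal 1, the treated animal on the slide of the controls, was the lowest of its group for Cyp2b10 at 9.63, for Gadd45b at 2.33 and for Glul at 6.24, and the highest for Duox1 at -1.32. Control animal 1 was the lowest control for Cyp2c55 at 1.39 and for G6pc at 5.82, and the highest for Prom1 at -0.38. Control animal 6 was the lowest for Cps1 at 3.61 and for Dlk1 at -5.13. For Dlk1 phenobarbital animal 3 was also apart, at -4.39.

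The phenobarbital effect differed between C3H and hCAR/hPXR mice for 5860 probes by the test of the difference itself, and 600 of them had called effects in opposite directions.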

How the results depend on the processing

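The slide, single animals and the scaling each moved some counts by over 1.5 times. With the slide as a block 658 differences were called against 5860, with 329 hCAR/hPXR effects, 62 shared effects, 568 differences with an effect in C3H mice only, 61 with one in hCAR/hPXR mice only and 4 with opposite effects. Of the 5860 differences 5811 kept their sign under the slide block and 580 their call. A fit of all 28 arrays called 2435 differences, 3708 C3H effects, 539 shared, 1102 C3H-only, 843 hCAR/hPXR-only and 164 opposite effects, and the C3H arrays alone called 2241 C3H effects. Without the filter on dim probes 3562 differences, 944 shared, 1397 hCAR/hPXR-only and 254 opposite effects were called. Array weights gave 8930 differences, 4397 hCAR/hPXR-only and 1201 opposite effects. Opposite effects numbered 355 after quantile and 387 after normexp with quantile normalization, and 677 effects were shared within 1.5-fold. The control difference of Nr1i3, 4.25 here, was 3.16 after normexp and 3.92 with the percentile of detected probes, and that of Nr1i2, 7.54 here, was 4.20 after normexp. Leaving out 1 array gave 3795 (without C3H control 3) to 7699 (without hCAR/hPXR phenobarbital animal 1) differences, and 3962 without C3H phenobarbital animal 2. It gave 4101 (without C3H phenobarbital animal 3) to 7834 C3H effects, 12818 to 14612 hCAR/hPXR effects and 967 (without C3H phenobarbital animal 3) to 2062 shared effects. Shared effects numbered 1005 without C3H control 1 and 1159 without C3H phenobarbital animal 2. Differences with an effect in C3H mice only ran from 1253 (without C3H phenobarbital animal 3) to 2369, those in hCAR/hPXR mice only from 1672 (without C3H control 3) to 4040 (without hCAR/hPXR phenobarbital animal 1), and opposite effects from 348 (without C3H phenobarbital animal 2) to 829. Opposite effects also fell to 355 without C3H control 3. The cause of these changes was not tested, beyond the fewer arrays of each fit. Of 130 named genes with a called difference 108 kept the call whichever array was left out, none of their called differences changed sign, and over all 150 named genes 64 of 4776 alternative values changed sign for genes called in neither setting. Among the gene lists, 157 of 1088 counts under alternatives moved by over 1.5 times. Animals share only a number across groups, with correlations of same-numbered animals from -0.12 to 0.23 in hCAR/hPXR and 0.04 to 0.12 in C3H mice. A replicate block on that number gave 5389 differences, of which 4832 were called without the block, 6308 C3H effects, 13847 hCAR/hPXR effects and 1800 shared effects. Every C3H animal, and of the hCAR/hPXR animals number 7 alone, correlated best with its own number, a hint from the data and not from the design. Arrays hold no counts, and 3 animals per C3H group limit the precision, with a median standard error of 0.25 for the difference.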

Other observations

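Among genes that differ between male and female liver, several male-biased genes fell and several female-biased genes rose in both experiments. Of 16 tested male-biased genes 8 fell in C3H mice and 6 fell and 1 rose in hCAR/hPXR mice, with median effects of -1.29 and -0.44, and the difference was lower in C3H mice for 3, with 2 to 8 when 1 array was left out and 0 after quantile normalization. Over all tested probes the difference was called lower for 14.7%. Elovl3, a fatty acid elongase, had effects of -2.64 in C3H and -1.62 in hCAR/hPXR mice. Of 18 tested female-biased genes, 10 of them detected on all 20 arrays, 10 rose in C3H mice, with a median of 2.18. In hCAR/hPXR mice 11 rose and 3 fell, with a median of 1.28. Of all tested probes 10.9% rose and 13.5% fell in C3H mice, and 31.7% rose and 20.7% fell in hCAR/hPXR mice. The Cyp2b, Sult2a and Cyp3a genes given earlier make up many of the latter list and are also targets of CAR or PXR. Cyp2b9 rose by 5.95 ± 0.37 and 4.90 ± 0.24.

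In the other lists the strains parted gene by gene, and the counts stand beside differences called higher for 7.3% and lower for 14.7% of all tested probes. Of 24 tested ATF4 targets and chaperones the difference was higher in C3H mice for 7 and lower for 4. Leaving out 1 array gave 4 to 7 higher, 4 without C3H control 1 or C3H phenobarbital animal 3, and 1 (without C3H control 1) to 6 lower, and the slide block gave 2 higher and 0 lower (6 and 0 at an unadjusted p under 0.05 by limma). The stress factor Ddit3 (2.31 ± 0.42) and the serine synthesis enzyme Psat1 (2.03 ± 0.71) were among the higher genes, and the chaperones Calr (-0.86 ± 0.19) and Hsp90b1 (-1.07 ± 0.34) among the lower. Of 30 tested PPARA targets and oxidation genes 6 differences were higher and 2 lower in C3H mice, led by the thioesterase Acot2 (1.99 ± 0.47) and Vnn1 (1.95 ± 0.51), whereas Ppara itself had effects of -0.14 ± 0.18 and -0.31 ± 0.12. Interferon-stimulated genes, 20 of them tested, rose for 12 in hCAR/hPXR mice, and in C3H mice 4 rose and 2 fell, and the difference was lower for 5, including the immunoproteasome subunit Psmb8 (-1.08 ± 0.28). Over all tested probes 31.7% rose in hCAR/hPXR and 10.9% in C3H mice. The median effects of the list were close, at 0.54 in hCAR/hPXR and 0.58 in C3H mice, with a median difference of -0.08. The 12 rises became 6 with the percentile of detected probes, and under the slide block limma called 0 rises (3 at an unadjusted p under 0.05) and 0 differences (3 lower unadjusted). The 5 differences became 2 after quantile normalization, without C3H control 1 or without C3H phenobarbital animal 3. Of 13 tested clock genes 5 fell and 2 rose in C3H mice, where Arntl, a core activator, had an effect of -1.81 ± 0.48 and its output gene Dbp 3.24 ± 0.88, against -0.04 ± 0.32 and 0.13 ± 0.58 in hCAR/hPXR mice. The C3H effect of Arntl was -0.87 without treated animal 1 and had an adjusted p of 0.177 with the C3H arrays alone, a fit that called 1 clock gene, lower. Leaving out 1 array in turn, the called difference of Arntl was held in 15 of 20 fits and that of Dbp in 6. The hour of collection is not given in the sources used here, and its part in these values was not tested. Of 16 GADD45 and apoptosis genes the difference was higher for 2, Gadd45g and Bcl2l1 (1.05 ± 0.24, and -0.58 on a dimmer probe), and lower for 1, Bik (-2.23 ± 0.59).

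Resistin (Retn), an adipocyte hormone gene, was not well above background on any C3H array. It had hCAR/hPXR levels of -3.65, -2.81 and -2.20 in controls and -0.61, 0.52 and 1.24 with phenobarbital (lowest, median and highest), a rise of 3.33 ± 0.25 without overlap. The other tested adipocyte markers were Fabp4, with effects of 1.56 ± 0.25 and 1.06 ± 0.16, and Cfd, which fell by 1.53 ± 0.43 in hCAR/hPXR mice. The summed level of the adipocyte list was 4.67 to 6.71 in hCAR/hPXR controls and 10.72 to 12.55 in treated hCAR/hPXR mice. It was higher with phenobarbital in C3H mice as well, at 5.25 to 7.305 in controls and 10.14 to 25.26 in treated mice. Whether adipose tissue was included with the liver was not tested. Of 4 tested pancreatic markers Cela1, an elastase, rose by 4.31 ± 0.52 in C3H mice, while Ctrb1 had an effect of -0.77 ± 0.19.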
